A study of Mus musculus with 4 samples.

Results

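The genes of the NMDA receptor subunits were followed in whole brains of mouse fetuses at embryonic day 16. Of the 7 subunit genes, 6 (Grin2a, Grin2b, Grin2c, Grin2d, Grin3a and Grin3b) had 1 probe set each that is annotated with that gene alone, out of 19938 genes and 35556 probe sets in the table. Grin1, which encodes the subunit shared by all NMDA receptors, had no probe set with its symbol and was not analysed here. The fetuses were of the inbred strain C57BL/6J, and their sex is given as unknown. Their mothers received injections on gestational days 14 and 16, either of ethanol at 2.5 g per kg in saline or of the same volume of saline alone. Each of the 2 ethanol arrays and 2 control arrays read RNA pooled from 3 mice, 12 in all, and the labels do not say how litters were spread over the pools. The arrays were Affymetrix whole-transcript arrays, on which several probes along a transcript give 1 value, here a log2 brightness.

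NMDA receptors are channels opened by glutamate that let calcium into neurons, and they are assembled from GluN1 (Grin1) with GluN2 or GluN3 subunits. GluN1 and GluN3 subunits bind glycine or D-serine, and GluN2 subunits bind glutamate. In rodent brain GluN2B and GluN2D are the prominent GluN2 subunits before birth, while GluN2A and GluN2C gain ground after birth as synapses mature, and GluN3A is most abundant in early postnatal life. Ethanol inhibits the receptor channel, which makes its subunits a common subject in studies of fetal alcohol exposure.

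No measured subunit gene passed the test between ethanol and control pools. The log2 difference (ethanol minus control) lay between -0.14 for Grin2d and 0.11 for Grin2a, and the median over the 6 genes was 0.02, against 0.01 over all 19938 genes. The ethanol pools lay apart from the control pools in 0 of the 6 genes, beside 31.4% of all genes. Arrays in random order, 2 against 2, would lie apart in 0.333 of cases. For Grin2a, Grin2b, Grin2d and Grin3a both ethanol pools lay between the control pools, which held for 16.2% of all genes. What separated arrays in these 4 genes was the gap between the control pools, with control 1 lowest and control 2 highest each time.

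The libraries themselves stood apart in other tissues' genes and, separately, in Xist. The summed brightness of 12 skeletal muscle genes was 2265 in ethanol 1 and 7062 in ethanol 2, against 20321 in control 1 and 2239 in control 2, and all 12 were highest in control 1. Xist, the noncoding RNA of the inactive X chromosome, had log2 values of 11.96 and 12.80 in ethanol pools, against 6.10 in control 1 and 12.84 in control 2. Markers of the labelled tissue were bright. The median log2 level of 9 neuronal markers (Tubb3, Map2, Dcx and others) was 12.35 to 12.51 and that of 7 radial glia markers (Sox2, Fabp7 and others) 10.79 to 11.01 on every array. The median of all probe sets was 8.01 to 8.04.

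**Figure D1:**
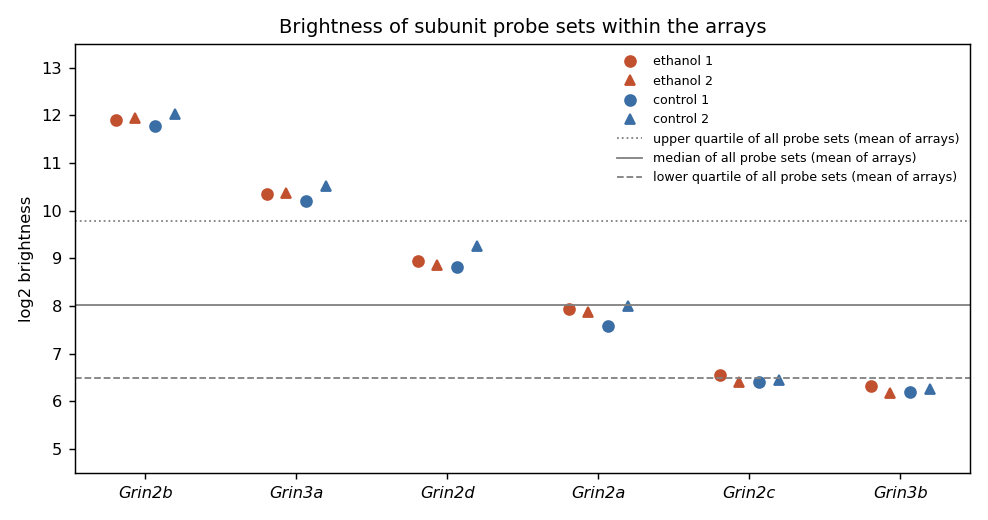
The y axis gives the log2 brightness of each subunit gene's probe set on each array, with ethanol pools to the left of control pools, and the horizontal lines mark the quartiles of all probe sets. Grin2b and Grin3a lay above the upper quartile, Grin2d above the median, Grin2a under it (by 0.45 on control 1, and by up to 0.13 on the others), and Grin2c and Grin3b near or under the lower quartile.

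The brightness order of the probe sets was the same on all 4 arrays, from Grin2b through Grin3a, Grin2d, Grin2a and Grin2c to Grin3b, and the ranges of neighbours in this order did not overlap, with a smallest gap of 0.09 between Grin2c and Grin3b. This is an order of probe signal. Probe sets differ in how brightly they report a transcript, so the order does not rank the transcripts by amount. In each array's own distribution, the Grin2b signal stood above 94.7% to 95.9% of probe sets and that of Grin3a above 80.2% to 84.5%. Grin2d stood above 61.0% to 67.9% and Grin2a above 43.7% to 49.9%. Grin2c, at 23.9% to 25.3%, and Grin3b, at 18.1% to 19.6%, lay at the dim end, where a value may hold little signal of its own transcript. No detection call was used here. Grin3b was under the lower quartile (6.45 to 6.55) on every array, and Grin2c was above it only on ethanol 1.

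Grin2b, the glutamate-binding subunit typical of fetal receptors, had log2 values of 11.90 and 11.94 in ethanol pools, against 11.78 and 12.04 in control pools. The ethanol values sat close together inside the span of the controls. The log2 difference was 0.01 ± 0.10 (SE, 2 arrays per group), with a 95% interval of -0.24 to 0.26, or from 15.3% lower to 20.1% higher, and an adjusted p of 0.997 in limma over all genes. Changes inside this interval cannot be told apart with 2 arrays per group, and the interval is not a strict limit. Limma called 0 of all 19938 genes, so a larger change could also have gone uncalled.

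Grin2a, the glutamate-binding subunit that becomes prominent after birth, had log2 values of 7.94 and 7.87 in ethanol pools, against 7.59 and 8.01 in control pools. Control 1 was the low array, and the other values lay within a narrow band. The log2 difference was 0.11 ± 0.14 (95% interval -0.24 to 0.45, adjusted p = 0.980 in limma). It was 0.31 without control 2 and -0.10 without control 1, so its direction rested on which control pool was kept.

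Within each array the Grin2b signal exceeded the Grin2a signal by 3.96 and 4.07 in ethanol pools and by 4.19 and 4.03 in control pools (log2). The probe sets' own brightness enters this distance, so its size is not a ratio of the transcripts. Only its shift between groups was tested. Such a shift describes probe signal, and by itself would not show unequal change of the transcripts. The distance averaged 4.02 ± 0.08 in ethanol pools and 4.11 ± 0.11 in control pools (SD, n = 2 each), a difference of -0.09. An exact two-sided permutation test gave p = 0.667, where the smallest p that 2 against 2 arrays allow is 0.333. The same distance was examined for 2 further pairs outside the analysis plan, so 3 in all. Each of the 2 holds a gene at the dim end, Grin2c or Grin3b, whose value may hold little signal of its own transcript. For Grin2d minus Grin2c it was 2.39 and 2.45 in ethanol pools, against 2.41 and 2.82 in control pools, and for Grin3a minus Grin3b 4.03 and 4.18 in ethanol pools, against 4.002 and 4.27 in control pools. The exact permutation p was 0.667 and 1.00 for these 2 pairs, and after adjustment over the 3 pairs it was 1 for each.

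**Figure D2:**
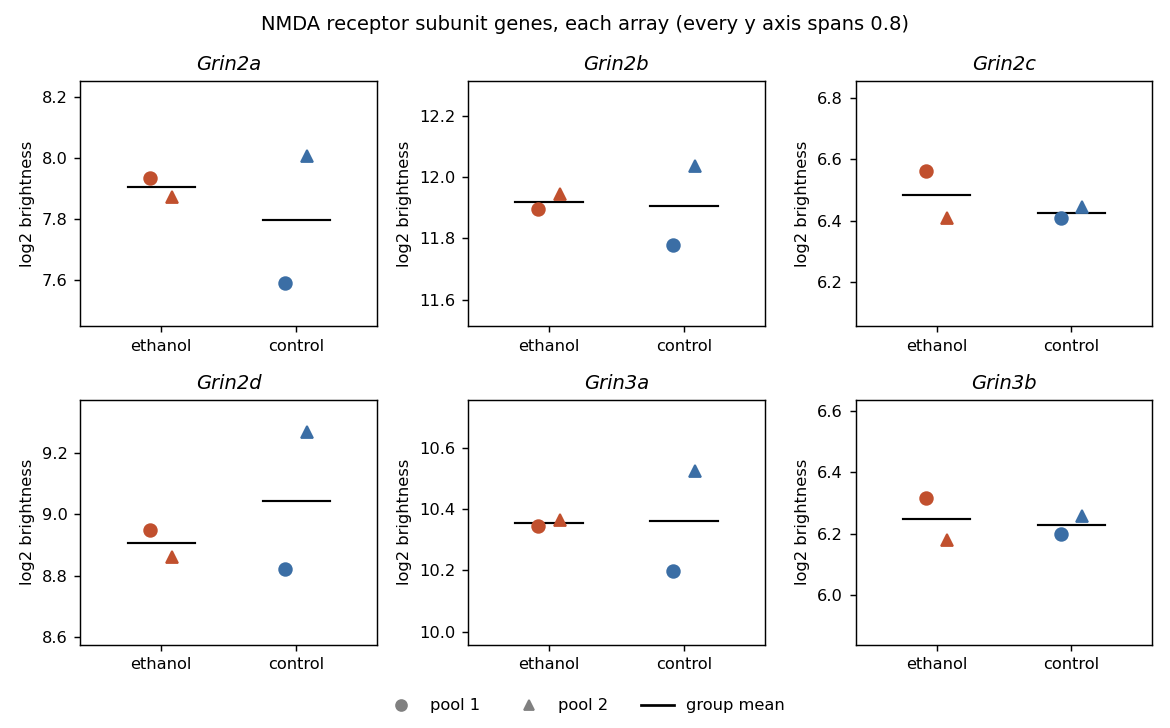
Each panel gives the log2 brightness of 1 subunit gene on every array, ethanol pools left and control pools right, with circles for pool 1, triangles for pool 2 and a black line at the group mean. In Grin2a, Grin2b, Grin2d and Grin3a the ethanol pools lie between control 1, the lowest array, and control 2, the highest.

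Grin2d, a glutamate-binding subunit of fetal brainstem, thalamus and interneurons, had log2 values of 8.95 and 8.86 in ethanol pools, against 8.82 and 9.27 in control pools. Control 2 stood above the other arrays, and the ethanol pools overlapped the control range. The log2 difference was -0.14 ± 0.15 (95% interval -0.51 to 0.24, adjusted p = 0.980 in limma), the lowest of the 6 genes. It was -0.36 without control 1 and 0.09 without control 2.

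Grin2c, in the adult a subunit of cerebellar granule cells, had log2 values of 6.56 and 6.41 in ethanol pools, against 6.41 and 6.45 in control pools. Ethanol 1 was the high array and the other 3 were nearly level. The log2 difference was 0.06 ± 0.08 (95% interval -0.14 to 0.26, adjusted p = 0.980 in limma). It was 0.14 without ethanol 2 and -0.02 without ethanol 1, and 0.02 after the values were quantile normalized again. Ethanol 1 also had the highest lower quartile of all probe sets, 6.55 against 6.45 to 6.47 on the other arrays, and the part of this in the Grin2c value was not tested.

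Upstream sequence was at hand for 4 of the subunit genes (Grin1, Grin2c, Grin2d and Grin3b), as RefSeq windows of build GRCm38.p6. Those of the GluN2 genes, Grin2d and Grin2c, are shown for the 250 bases before the gene start. Capitals mark each GC box (GGGCGG or its reverse complement CCGCCC), the motif of Sp-family factors. Grin2d lies at chr7:45866682-45866931 and Grin2c at chr11:115267244-115267493, both on the minus strand and both written 5′ to 3′ toward the gene.
Grin2d: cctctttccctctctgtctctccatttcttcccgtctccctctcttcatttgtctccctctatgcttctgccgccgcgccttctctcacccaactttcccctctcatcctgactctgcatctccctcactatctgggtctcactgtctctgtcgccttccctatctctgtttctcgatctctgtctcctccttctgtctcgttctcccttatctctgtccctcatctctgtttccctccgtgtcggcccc
Grin2c: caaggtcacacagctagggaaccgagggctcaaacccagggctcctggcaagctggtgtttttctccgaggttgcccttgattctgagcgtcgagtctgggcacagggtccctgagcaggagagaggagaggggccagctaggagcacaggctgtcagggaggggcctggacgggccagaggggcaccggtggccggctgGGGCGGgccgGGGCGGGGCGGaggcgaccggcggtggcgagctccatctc
The Grin2c window holds 3 GC boxes, of which the last 2 share 1 base, and the Grin2d, Grin1 and Grin3b windows hold 0. A GC box on either strand occurs in 32.7% of 32851 such windows. The GC content is 54.4% for Grin2d and 68.8% for Grin2c, where the median window has 52.4%. Both arms of the RE1 element bound by the repressor REST, searched on both strands as TTCAGCACC and GGACAGCG, occur in 0.301% and 0.992% of windows and in 0 of these 4. With exact matches this rare, 0 of 4 windows says little about REST sites. Inexact sites and sites outside these windows were not searched. These matches describe the letters of the windows alone.

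Grin3a, a glycine-binding subunit that lowers the calcium flux of the channel, had log2 values of 10.35 and 10.36 in ethanol pools, against 10.20 and 10.52 in control pools. The ethanol pools were almost equal and lay midway between the controls. The log2 difference was -0.01 ± 0.12 (95% interval -0.30 to 0.28, adjusted p = 0.998 in limma). It was -0.17 without control 1 and 0.16 without control 2. Grin3b, the glycine-binding subunit known from motor neurons, had log2 values of 6.31 and 6.18 in ethanol pools, against 6.20 and 6.26 in control pools. The groups overlapped, and the log2 difference was 0.02 ± 0.08 (95% interval -0.18 to 0.21, adjusted p = 0.997 in limma).

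Limma called 0 of the 6 genes at an adjusted p under 0.05, as it called 0 of all 19938 genes (0%). At an unadjusted p under 0.05, 0 of the 6 passed in limma and 0 in the ordinary test without shared variance, beside 2.94% and 3.85% of all genes. The smallest unadjusted p among the 6 was 0.393, for Grin2d. The labels do not say that the pools came from separate litters, so these p-values measure only the spread between the pools. The 95% intervals reached furthest for Grin2d (from 30.0% lower to 17.7% higher) and Grin2a (from 15.5% lower to 37.0% higher), the genes with the widest control spread.

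**Figure D3:**
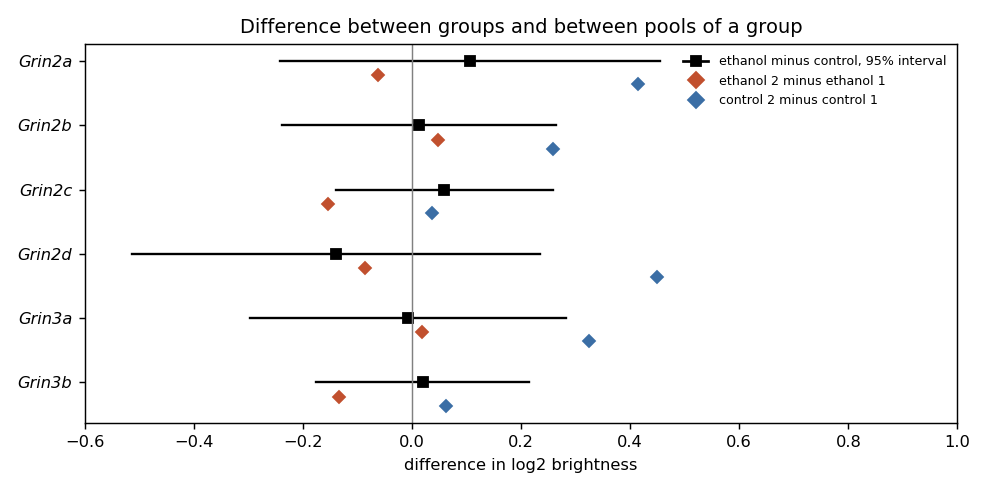
For each subunit gene the black square and bar give the log2 difference of ethanol minus control with its 95% interval, and the diamonds give pool 2 minus pool 1 within ethanol (red) and within control (blue). All 6 intervals include 0. For Grin2a, Grin2b, Grin2d and Grin3a the gap between the control pools (0.26 to 0.45) exceeds the difference between the groups. This follows from both ethanol pools lying between the control pools in these genes.

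The control pools differed in these 4 genes by more than in most genes, a pattern chosen for description after its values were seen. Control 2 minus control 1 was 0.45 for Grin2d, 0.41 for Grin2a, 0.32 for Grin3a and 0.26 for Grin2b, and these values lay above those of 99.8%, 99.7%, 99.1% and 97.5% of all genes. By its size in either direction, the gap exceeded that of 97.6% of genes for Grin2d, 97.2% for Grin2a, 95.3% for Grin3a and 91.9% for Grin2b. For Grin2c and Grin3b control 2 minus control 1 was 0.04 and 0.06, against a median of 0.01 over all genes. In the same 4 genes both ethanol pools lay between the control pools, so the ethanol gap was bound to be the smaller. Ethanol 2 minus ethanol 1 was -0.09 for Grin2d, -0.06 for Grin2a, 0.02 for Grin3a and 0.05 for Grin2b. Control 1 lowest together with control 2 highest was the order in 4 of the 6 genes, in 14 of 58 measured genes of receptor partners (24.1%) and in 8.11% of all genes. Control 2 was above control 1 in all 6 subunit genes, in 41 of the 58 partner genes (70.7%) and in 53.5% of all genes. The 4 genes share the same arrays, so they are not 4 separate observations of that gap. There is 1 array per pool, and no test of a difference between pools was made.

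Other transcripts varied between the same pools. Rest, a repressor of neuronal genes outside neurons and a known regulator of Grin genes, ran the other way, with log2 values of 7.96 and 8.04 in ethanol pools, against 8.30 in control 1 and 7.87 in control 2. This direction was not particular to Rest, since 6 of the 7 listed transcription regulators were higher in control 1 than in control 2. The GC-box factor Sp1 was among them, at 10.02 in control 1 and 9.86 in control 2. The neuronal markers were lower in control 1 than in control 2 in 7 of 9 genes by a median of 0.12 (log2), with a summed brightness of 57566 and 56710 in ethanol pools, against 54577 in control 1 and 58090 in control 2. Radial glia markers were higher in control 1 in 4 of 7 genes. Skeletal muscle markers were higher in control 1 in 12 of 12 genes, 11 of them at least 2-fold. Markers of meninges and fibroblasts were higher there in 6 of 6, with 3 at least 2-fold. For Ptgds, of the latter list, control 2 minus control 1 was only -0.04. Blood markers were higher in control 1 than in control 2 in 4 of 4 genes, 1 of them at least 2-fold. Only 2 of the 4 were highest of all arrays in control 1. Hbb-bh1 was dim, at 5.68 in control 1 and 5.59 in control 2, under the lower quartile of all probe sets. The summed brightness of blood markers was 1270 and 1807 in ethanol pools, against 2210 in control 1 and 1170 in control 2. Ethanol 2 was at least 2-fold above ethanol 1 in 4 of the 12 muscle genes and 3 of 6 meningeal and fibroblast genes. The median log2 difference of ethanol 2 minus ethanol 1 was 0.74 for the muscle list and 0.77 for the meningeal and fibroblast list. The latter list did not move as a whole. Col1a1, Col1a2, Lum and Dcn stood at 0.42 to 1.55, but Ptgds at -0.24 and Aldh1a2 at -0.13. Subunit values in ethanol 2 differed from those in ethanol 1 by 0.02 to 0.15 in either direction. In whole-brain RNA, fewer neurons and less subunit RNA per neuron cannot be told apart. The part of other tissues, of the makeup of the pools by sex or of RNA quality in the low subunit values of control 1 was not tested.

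**Figure D4:**
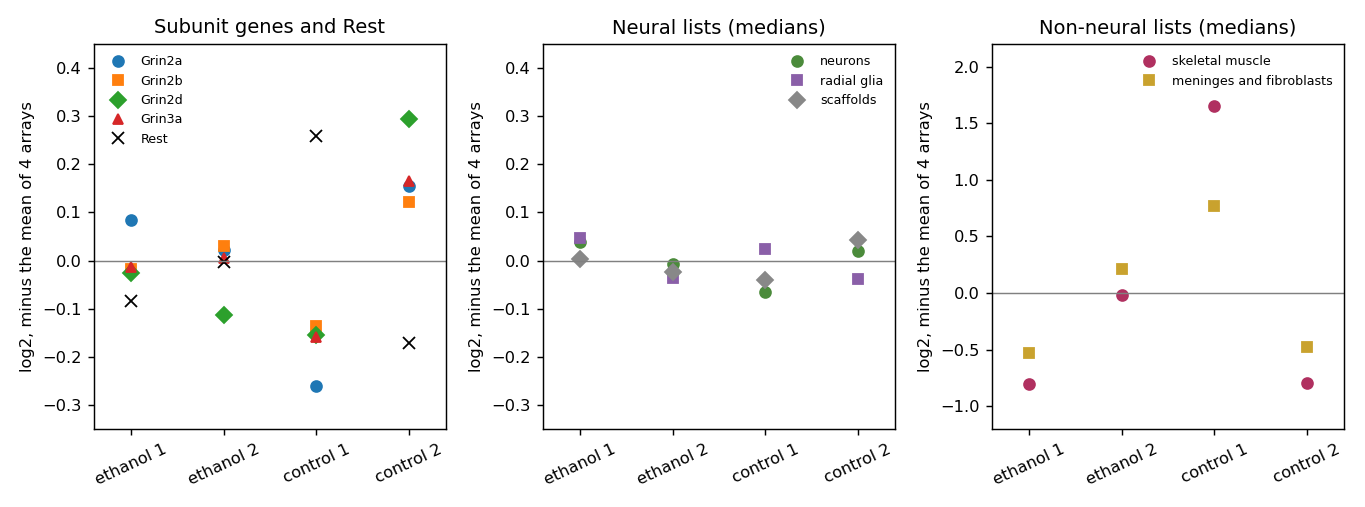
Each point is a log2 value minus its mean over the 4 arrays, for subunit genes and Rest (left), for list medians of neurons, radial glia and scaffolds (middle) and of skeletal muscle and meninges (right, with a wider axis), with ethanol pools left of control pools. The 4 subunit genes are lowest in control 1 and highest in control 2, Rest is highest in control 1, and the muscle list is highest in control 1.

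Around the subunits, 62 genes of scaffolding, transport, signalling, co-agonist supply and transcription were listed in 6 groups, of which 58 were measured. None passed the adjusted threshold in either direction, 24 had a difference above 0 and 34 below, and the groups did not overlap in 15 of 58 (25.9%), beside 31.4% of all genes. The other 4 were not analysed here. The median difference over the 58 was -0.01, against 0.01 over all genes.

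Scaffold proteins hold the receptor in the postsynaptic density through the tails of its GluN2 subunits. Of 14 measured scaffold genes 0 passed in either direction, with 5 above and 9 below 0 and a median log2 difference of -0.02. Dlg3 encodes SAP102, the scaffold that prevails at immature synapses. It had the highest difference of the group, with log2 values of 9.75 and 9.70 in ethanol pools, against 9.61 and 9.70 in control pools (0.07 ± 0.07). Dlg4, which encodes PSD-95 of mature synapses, had 11.82 and 11.75 in ethanol pools, against 11.67 and 11.80 in control pools (0.04 ± 0.08). By the brightest probe set of each gene, the lowest difference was that of Shank3, a deeper scaffold of the density, at -0.15 ± 0.07 with an adjusted p of 0.980 in limma. Other probe sets of the same gene could disagree in sign. Shank2 was 0.03 by its brightest probe set but -0.22 and -0.14 by its others, and Homer2 was 0.07 against -0.02. Scaffold genes were higher in control 2 than in control 1 in 12 of 14 cases, by a median of 0.09, beside 53.5% of all genes.

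Genes of transport and surface partners move receptors along dendrites or anchor them at the membrane. Of 9 measured, 0 passed in either direction, and the median difference was 0.03. Lin7a, of the complex that links GluN2B cargo to the kinesin KIF17, had the highest difference, 0.14 ± 0.08. Gipc1, an adaptor of receptor trafficking, had log2 values of 8.41 and 8.79 in ethanol pools, against 9.11 and 8.85 in control pools. Its groups did not overlap, and its difference of -0.38 ± 0.15 gave the only unadjusted p under 0.05 among the 58 genes (0.0457, adjusted p = 0.980 in limma), where 2.94% of all genes had one. It was -0.20 without ethanol 1 and -0.26 without control 1.

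Kinases and phosphatases act on the receptor or carry its calcium signal. Of 16 measured, 0 passed in either direction, with 5 above and 11 below 0 and a median of -0.03. The kinase subunits Camk2a, at -0.10 ± 0.09, and Camk2b, at 0.11 ± 0.10, lay on opposite sides of 0. Fyn, a tyrosine kinase that phosphorylates GluN2B, had log2 values of 11.27 and 11.47 in ethanol pools, against 11.53 and 11.64 in control pools. The groups did not overlap, and the difference was -0.21 ± 0.09 (adjusted p = 0.980 in limma), with -0.12 without ethanol 1. Actn2 encodes an actinin that binds GluN1 and GluN2B and is also a sarcomere protein of muscle. It had 7.97 and 8.81 in ethanol pools, against 10.49 and 7.90 in control pools. Its difference of -0.80 ± 0.81 was 0.49 without control 1, the pool with the highest muscle genes, and its levels ran with those genes.

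Of 10 measured genes of glycine and D-serine supply 0 passed, with 4 above and 6 below 0 and a median of -0.03. Srr, the serine racemase that makes D-serine, stood at -0.06 ± 0.08, the glycine transporter Slc6a9 at 0.09 ± 0.12 and the neutral amino acid transporter Slc1a4 at -0.12 ± 0.08. Of 7 regulators of transcription 0 passed and the median was 0.003. Rest had a difference of -0.09 ± 0.15, which was 0.13 without control 1. The activity-dependent factor Mef2c stood at 0.05 ± 0.09 and the GC-box factor Sp1 at -0.18 ± 0.09. The 2 measured relatives outside the NMDA receptor channel were the delta receptor Grid1, at 0.01 ± 0.09, and Grina, a membrane protein first described as a glutamate-binding component, at -0.05 ± 0.08.

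**Figure D5:**
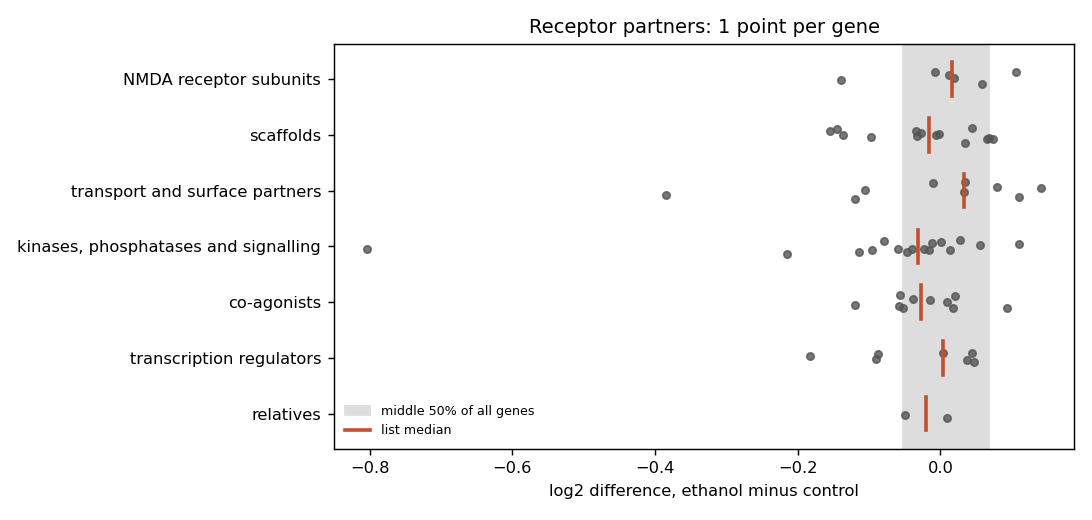
Each point is the log2 difference of ethanol minus control of 1 gene, by group of genes, with a red line at the group median and a grey band over the middle 50% of all genes (-0.05 to 0.07). All 7 medians lie inside the band, and the outlying points are Actn2 at -0.80 and Gipc1 at -0.38.

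By likeness of pattern over the 4 arrays, measured as the mean absolute difference after each gene was centred on its own mean, the genes nearest to Grin2b were Ncald (0.00506), Sncb (0.00758) and Zfp455 (0.00829). Those nearest to Grin2a were Tekt5 (0.00788), Faim2 (0.0139) and Phyhip (0.0179). With 4 arrays, and the nearest picked from 17154 genes, a near match says little. At a looser cutoff of 0.05, 1017 genes lay near Grin2b and 134 near Grin2a. Among the subunits Grin3a was nearest to both, at 0.0242 from Grin2b and 0.0566 from Grin2a.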

How the data were processed

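The values deposited by the authors are log2 brightness, 1 for each probe set on each array, a scale read from the range of the values. The submitters' processing notes name Partek 6.6, and how background, normalization and summary were done is not stated there. Per the labels' protocols, total RNA was labelled with biotin as single-stranded cDNA. Of 35556 probe sets, 21789 have 1 gene symbol in the platform annotation, 1621 several and 12146 none. Symbols were updated by Entrez identifier (21698 matched) with a GRCm38.p6 gene table used for names only. For a gene with several probe sets the brightest by its mean over all arrays was taken. The table has 0 columns of other samples.

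Limma 3.58.1 in R 4.3.3 (lmFit, eBayes without trend) was fitted to all 19938 genes on all 4 arrays, two-sided, with Benjamini-Hochberg adjustment and 95% intervals from the moderated fit (2 residual and 5.65 total degrees of freedom). The median SE of a difference was 0.079. The number of arrays limits the precision. Named were the subunit genes, the highest and lowest gene of each of 6 lists, Dlg3, Dlg4, Camk2a, Fyn, Srr and Rest, and the 3 genes nearest in pattern to Grin2b and to Grin2a (predicted, small RNA and olfactory or vomeronasal receptor genes left out). Alternatives covered the unit of testing, scaling, a filter on dim genes, variance models, leaving out arrays and a replicate block. The subunit genes and lists were chosen with earlier results of these data known.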

Additional observations from a re-analysis of the deposited data

How the results depend on the processing

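With 2 arrays per group these results are limited by the spread between pools, and no subunit passed the adjusted threshold under any alternative run. The genes called over the whole table were 0 under every alternative except leaving out control 2 (4 genes, and 0 without each other array). The 587 genes at an unadjusted p under 0.05 became 1405 over all probe sets, 267 with the replicate number as a block and 227 without ethanol 1, 1702 without ethanol 2, 273 without control 1 and 1394 without control 2. No label says that equal replicate numbers pair arrays, the deviations of same-numbered arrays correlated at -0.484, and the block called 0 genes. A block cannot change a difference of group means in this balanced layout, so the Grin2b minus Grin2a difference of -0.09 is the same with it by construction. With crossed pairing, chosen after the data were seen, 1463 genes had an unadjusted p under 0.05 and 0 were called. That difference was -0.17 to -0.02 with an array left out.

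After repeated quantile normalization 2 subunits changed sign, Grin3a (0.00953) and Grin3b (-0.024). With an array left out the log2 differences ranged from -0.10 to 0.31 for Grin2a, from -0.12 to 0.14 for Grin2b, from -0.018 to 0.14 for Grin2c, from -0.36 to 0.085 for Grin2d, from -0.17 to 0.16 for Grin3a and from -0.048 to 0.087 for Grin3b. Among the 17 listed genes named, those whose sign turned ranged from -0.024 to 0.11 (Dlg4), -0.017 to 0.24 (Camk2b), -2.10 to 0.49 (Actn2), -0.12 to 0.00385 (Srr), -0.063 to 0.25 (Slc6a9), -0.30 to 0.13 (Rest), -0.033 to 0.13 (Mef2c), -0.10 to 0.12 (Grid1) and -0.12 to 0.024 (Grina). The cause was not tested. Grin2a, Grin2c and Grin3b were too dim to enter the brighter genes.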

Other observations

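Among the 9 neuronal markers, named here after their values were seen, 6 had a difference above 0, and none passed the adjusted threshold. Snap25, a protein of transmitter release, had log2 values of 12.69 and 12.54 in ethanol pools, against 12.35 and 12.51 in control pools (difference 0.19 ± 0.09, SE). Tubb3, a neuronal tubulin, lay on the other side of 0, with 11.16 and 11.45 in ethanol pools, against 11.71 and 11.65 in control pools (-0.38 ± 0.11). The groups did not overlap in 4 of the 9 markers, these among them, beside 31.4% of all genes, and the other markers lay between -0.04 and 0.11. In 3 of the 9 (Stmn2, Syt1 and Rbfox3) control 1 was lowest and control 2 highest, the order of Grin2a, Grin2b, Grin2d and Grin3a, beside 8.11% of all genes.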
